A study of Homo sapiens with 96 samples.

Results

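The genes described here are amino acid transporters of the SLC1, SLC3, SLC7, SLC36, SLC38 and SLC43 families and the cytosolic aminoacyl-tRNA synthetases. They were listed by name and the rule uses no measured value, but the list was drawn up with earlier results of these data known. The list holds 36 genes. Of these, 34 had at least 1 probe set of their own on the array, 17 transporters and 17 synthetases, out of 19775 genes with an own probe set. MARS1 and QARS1, the methionyl and glutaminyl synthetases, were represented only by probe sets that the annotation shares with other genes and were not analysed. The 34 genes had 72 probe sets, and each gene is given by its main probe set, the brightest of its own probe sets when signals are averaged across all 96 arrays.

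The study asked which transcripts change when the B cell receptor (BCR) or CD20 is bound by antibody on non-Hodgkin lymphoma cells. REC1 and Z138 are mantle cell lymphoma lines, OciLy18 and SUDHL4 are diffuse large B cell lymphoma lines. Cells were left for 4 h with antibody, 10 µg/ml by the labels, and RNA was measured on HG-U133 Plus 2.0 arrays. The antibodies were whole anti-IgM, the F(ab)2 fragment of anti-IgM, anti-IgG, the murine anti-CD20 antibody LT20, the therapeutic anti-CD20 antibody rituximab and a human IgG isotype antibody, and in REC1 also the F(ab)2 fragment of rituximab. The untreated references were Control 1-3 in every line and Control 4-6 in OciLy18, Z138 and SUDHL4. Every group had 3 arrays. Each treatment was set against Control 1-3 of its line, except anti-IgG in OciLy18, Z138 and SUDHL4, which was set against Control 4-6. All treatments of REC1 therefore share the same 3 control arrays, and in the other lines all treatments but anti-IgG do. For the anti-IgM fragment the methods describe a lower mass than the labels do, set to equal molarity with the whole antibody. Each line is 1 cell line, so lines and lymphoma types cannot be told apart.

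Transporters of the plasma membrane bring amino acids into the cell, and synthetases attach each amino acid to its tRNA. The CD98 heavy chain SLC3A2 pairs with light chains of the SLC7 family, among them SLC7A5 (LAT1), which carries large neutral amino acids such as leucine. Lymphocytes raise amino acid uptake when they are activated and begin to grow, and many transporter and synthetase genes are targets of the transcription factor ATF4, which is made when amino acids are short or protein synthesis is under stress.

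Signals are the deposited array intensities on a linear scale, and changes are log2 ratios of treated over control groups. A gene was called when the adjusted p from limma, with Benjamini-Hochberg adjustment over all probe sets tested in the line, was below 0.05, the change was above 2-fold and the mean signal was above 100 in 1 of the 2 groups. A gene is said to pass the test alone where the adjusted p was below 0.05, whatever the size of the change. The methods describe a treated cell suspension for an array analysis and 3 replicates, but not whether replicates were set up from separate cultures or on separate days, so p-values measure the spread between these arrays, which may be technical, and the number of arrays limits the precision. Genes were tested where the mean signal was above 100 in at least 1 group of the line, which left 30 of the 34 genes in REC1 and 31 in each other line, 27 of them in all lines. Below that limit were SLC36A4, SLC38A5, SLC43A1 and SLC43A2 in REC1, SLC7A7, SLC36A1 and SLC38A6 in OciLy18, SLC38A6, SLC43A1 and SLC43A2 in Z138, and SLC36A1, SLC38A5 and SLC38A6 in SUDHL4.

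The lines carried most of the markers their labels call for. MS4A1, the gene of CD20, lay between 2802 and 5064 on all arrays. Another B cell marker, CD22, was low in Z138, at 11.8 to 39.7, against 291 or more on all arrays of the other lines. CCND1 and SOX11, markers of mantle cell lymphoma, were high in REC1 and Z138 only, and the IgM heavy chain gene IGHM did not exceed 22.2 on any SUDHL4 array, against 2972 or more on all arrays of the other lines. Arrays had nearly equal totals, 8528613 to 8530013. In the 3 lines with 2 control triplicates, untreated cells themselves differed: between Control 4-6 and Control 1-3, 17 tested genes of the list passed the test in SUDHL4, 11 in OciLy18 and 16 in Z138, where 49.2%, 35.1% and 42.1% of all genes did. SLC1A5 and VARS1 were called there in SUDHL4 and none in the others, where 1.77% of all genes were called in SUDHL4, 0.566% in OciLy18 and 0.881% in Z138, with SLC1A5 at a mean of 257 in Control 4-6 against 104 in Control 1-3. REC1 has 1 control triplicate, so this difference could not be measured in it.

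Over the 25 treatment comparisons 32 calls were made, 27 higher and 5 lower, and they fell on 7 genes: SLC7A5, SLC3A2, SLC7A1, SLC1A5, SLC7A7, SLC7A11 and WARS1. Of the calls, 26 were in REC1, 4 in OciLy18, 1 in Z138 and 1 in SUDHL4. The share of all genes called also reached furthest in REC1, at 0.705% to 14.6% per treatment. It was 0% to 4.14% in OciLy18, 0% to 5.50% in Z138 and 0% to 7.27% in SUDHL4. REC1 also had the rituximab fragment as a further treatment, so the split by line is not read as a trait of these genes.

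**Figure D1:**
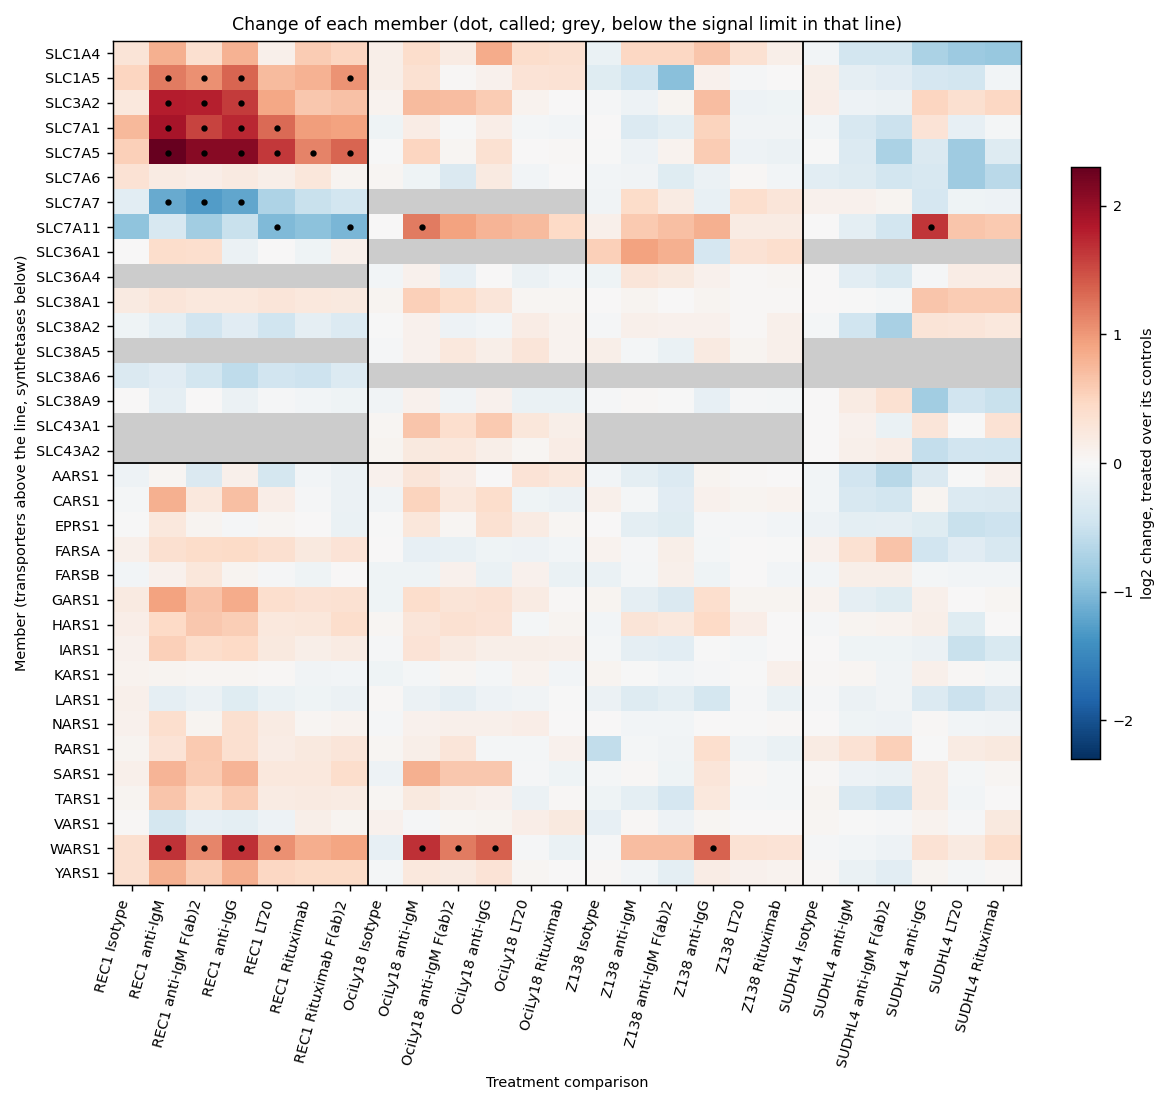
Log2 change of the 34 genes (rows, transporters above the line and synthetases below) in the 25 treatment comparisons (columns, by line), treated over its controls. Dots mark the 32 calls, 26 of them in REC1, where up to 14.6% of all genes were called per treatment. Grey marks genes below the signal limit in a line.

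REC1 responded with a rise of the LAT1 transporter and its partner. After anti-IgM, SLC7A5, SLC3A2, SLC7A1, SLC1A5 and WARS1 rose and SLC7A7 fell, 6 calls among 30 genes tested, where 13.0% of all genes were called. The F(ab)2 fragment and anti-IgG gave calls in the same 6 genes, where 14.6% and 11.2% of all genes were called. In the rising direction alone the background was 4.96% for anti-IgM, 6.02% for its fragment and 3.97% for anti-IgG. By the test alone, 18 genes were higher and 4 lower after anti-IgM, 16 and 5 after the fragment and 17 and 5 after anti-IgG, where 60.8%, 65.1% and 58.8% of all genes passed, those that were lower outnumbering those that were higher. LT20 gave 3 calls higher and 1 lower (5.47% of all genes called), rituximab 1 higher (1.91%), the rituximab fragment 2 higher and 1 lower (3.14%) and the isotype antibody none (0.705%). After LT20 12 genes were higher and 5 lower by the test alone, after rituximab 12 and 4, and after its fragment 13 and 4, where 45.1%, 28.0% and 37.2% of all genes passed. The median log2 change of the 30 genes was 0.38 after anti-IgM, 0.32 after the fragment and 0.37 after anti-IgG, beside -0.05, -0.03 and -0.05 over all genes tested.

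SLC7A5 (probe set 201195_s_at), the LAT1 light chain, had the largest change of the list. On the 3 anti-IgM arrays of REC1 its signal was 1215, 1404 and 1011, against 254, 211 and 272 on the control arrays. All treated arrays lay far above all control arrays, a log2 change of 2.29 (SE 0.135) or 4.9-fold, with a limma adjusted p of 1.04e-12. The fragment gave 1136, 1081 and 935 (4.28-fold) and anti-IgG 1032, 975 and 1139 (4.28-fold). LT20 gave 758, 824 and 689.7 (3.09-fold), rituximab 457, 612 and 564 (2.21-fold) and the rituximab fragment 643, 673 and 539.7 (2.52-fold). The isotype antibody also gave values above the controls, 423, 322 and 331, a log2 change of 0.54 with a limma adjusted p of 0.00921. SLC7A5 was thus called in 6 of the 7 REC1 treatments, and each treated array of the 7 groups lay above every control array.

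SLC3A2 (200924_s_at), the CD98 heavy chain that holds LAT1 in the membrane, moved with it after the BCR antibodies. Its signal was 622, 654 and 551 after anti-IgM, against 174, 161 and 187 in the controls, a log2 change of 1.80 (SE 0.087) with a limma adjusted p of 3.06e-14. The fragment gave 602, 571 and 633 and anti-IgG 489, 576 and 519.9, again with no overlap with the controls. After LT20, rituximab and the rituximab fragment the changes were 1.85-fold, 1.53-fold and 1.60-fold, past the test but under the 2-fold limit, and after the isotype antibody 1.19-fold (limma adjusted p 0.0648).

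SLC7A1 (212295_s_at), the CAT1 transporter of arginine and lysine, read 1147, 967 and 844 after anti-IgM, against 273, 264 and 253 in the controls, 3.72-fold (log2 1.89, SE 0.114, limma adjusted p 1.53e-12). The fragment gave 2.93-fold, anti-IgG 3.33-fold and LT20 2.48-fold. Rituximab and its fragment stayed just under the limit at 1.95-fold and 1.90-fold. Isotype arrays read 506, 404 and 426, all above the controls (1.68-fold, limma adjusted p 7.08e-05). A second probe set of SLC7A1 was called in the same 4 comparisons.

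SLC1A5 (208916_at), the ASCT2 exchanger of glutamine and other neutral amino acids, changed less. It was highest after anti-IgG, at 880.3, 949 and 702, against 338, 294 and 368 in the controls, 2.52-fold (log2 1.33, SE 0.121, limma adjusted p 2.51e-09). Anti-IgM gave 2.3-fold, its fragment 2.09-fold and the rituximab fragment 2.06-fold, which were called, and rituximab 1.74-fold and LT20 1.66-fold, which were not. The smallest of these calls depended on single arrays. The log2 change after the anti-IgM fragment was 0.98 without Control replicate 2, and that after the rituximab fragment was 0.95 without Control replicate 2 and 0.94 without treated replicate 3.

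SLC7A7 (204588_s_at), the y+LAT1 light chain that also pairs with SLC3A2, went the other way. It read 89.6, 127 and 114 after the anti-IgM fragment, against 242, 297 and 258 in the controls, and fell by 1.28 on the log2 scale (SE 0.145, limma adjusted p 6.66e-08). Anti-IgM and anti-IgG gave log2 changes of -1.16 and -1.20. No treated array of these 3 groups reached the lowest control array. LT20, rituximab and the rituximab fragment gave smaller falls, -0.71, -0.51 and -0.43, past the test alone, and the isotype antibody -0.25 (limma adjusted p 0.289).

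SLC7A11 (209921_at), the xCT light chain that imports cystine in exchange for glutamate, was lower in all 7 treated REC1 groups by the test alone. It was called after LT20 (88.1, 92.7 and 94.7) and the rituximab fragment (74.4, 96.9 and 97.4), against 173, 186 and 199 in the controls, log2 changes of -1.02 and -1.06. The isotype arrays read 90.0, 93.4 and 110.3 (log2 change -0.93, limma adjusted p 4.52e-05), and a second probe set was called there. After anti-IgM the level was highest among the treated groups, 167, 122 and 144. Both calls were at the limit and ended when single arrays were left out, at -0.97 for LT20 without Control replicate 3 and -0.93 for the rituximab fragment without its replicate 1.

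**Figure D2:**
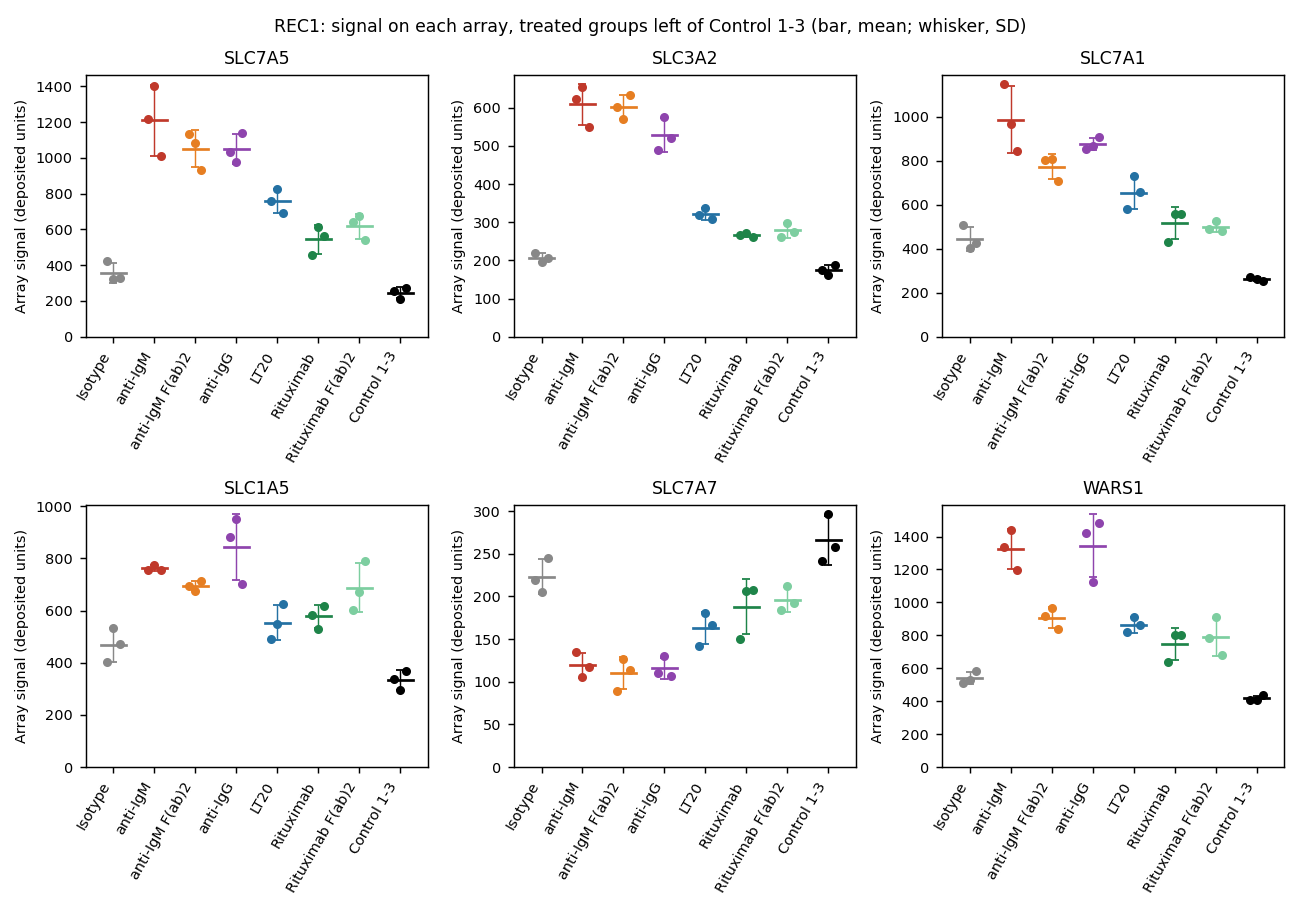
Array signal of 6 called genes in REC1 by treatment, treated groups left of Control 1-3 (points, arrays; bar, mean; whisker, SD, n = 3). SLC7A5 reads 1011 to 1404 after anti-IgM against 211 to 272 in the controls, SLC7A7 106 to 135 against 242 to 297.

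Set against the isotype arrays in place of the controls, part of the REC1 calls ended. Anti-IgM against isotype left 4 calls, SLC7A5 (log2 1.75), SLC3A2 (1.56), WARS1 (1.29) and SLC7A1 (1.14), where 5.92% of all genes were called and 47.5% passed the test alone. The anti-IgM fragment against isotype left SLC7A5 (1.56), SLC3A2 (1.54) and SLC7A7 (-1.03), where 7.79% were called. Anti-IgG against isotype left 3, SLC7A5 (1.56), SLC3A2 (1.35) and WARS1 (1.31), where 4.81% were called and 43.4% passed. SLC1A5 was not called against isotype after any antibody, with log2 differences of 0.55 to 0.85 in the 4 groups concerned, and neither was SLC7A7 after anti-IgM (-0.91) or anti-IgG (-0.95). For LT20 only SLC7A5 remained (1.09), where 0.935% of all genes were called, and for rituximab and its fragment no gene did, where 0% and 0.167% were, with SLC7A5 at 0.60 and 0.79 above isotype. SLC7A11 differed from isotype by -0.09 after LT20 (limma adjusted p 0.698), -0.01 after rituximab (0.987) and -0.13 after its fragment (0.575). Cells of another type were looked for by their markers. CD3D, a T cell gene, read 574 to 1393 on REC1 arrays, while CD3E and CD2 did not exceed 65.9 and 24.3. The summed signal of the 4 T cell markers was 648 to 791 after anti-IgM, 713 to 803 after its fragment and 798 to 830.2 after anti-IgG, against 1534 to 1608 in the controls, and 1411 to 1451 after isotype. Of the B cell markers, CD79B averaged 293 after anti-IgM, against 1273 in the controls, and PAX5 1469 against 3630 (log2 -2.12 and -1.30, both called), while CD22 averaged 618 against 307 (log2 1.01) and was called higher after the fragment (1.13) and anti-IgG (1.18) too, so the B cell list moved both ways. The 3 plasma cell markers SDC1, XBP1 and PRDM1 summed to 1172 to 1193 after anti-IgM, 1126 to 1271 after its fragment and 958 to 1106 after anti-IgG, with no overlap with the 680.3 to 786 of the controls, and to 943 to 999 after LT20 and 725 to 826 after isotype. Most of the plasma cell sum was XBP1, which read 573 to 1120 on REC1 arrays. SDC1 read 12.1 to 39.5 and PRDM1 46.8 to 125, so the sum does not show a rise of all 3. Monocyte markers summed to at most 33.4 and NK cell markers to at most 49.2 in REC1. The part of these markers in the changes of the list was not tested, and in bulk RNA fewer cells of a type and less RNA per cell cannot be told apart.

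The sequences before the starts of the 5 genes that rose in REC1 are shown because these genes moved together. They were taken from RefSeq on GRCh38.p14, from 250 bases before the transcript start to 50 after it, 5′ to 3′ on the gene's own strand, and 32 of the 36 genes were in that table. For SLC3A2 the start used lies inside the annotated gene. The same holds for SLC38A1, TARS1, SLC43A2 and SLC36A1 among the further windows counted below. Capitals mark matches on either strand to TGATGNAA, the response element of C/EBP and ATF factors, to CACGTG, the E-box that MYC and other factors recognise, and to TGANTCA, the AP-1 site. SLC7A5 lies at chr16:87869458-87869757 (minus strand), SLC3A2 at chr11:62881449-62881748 (plus), SLC7A1 at chr13:29595639-29595938 (minus), SLC1A5 at chr19:46788545-46788844 (minus) and WARS1 at chr14:100376278-100376577 (minus).
SLC7A5: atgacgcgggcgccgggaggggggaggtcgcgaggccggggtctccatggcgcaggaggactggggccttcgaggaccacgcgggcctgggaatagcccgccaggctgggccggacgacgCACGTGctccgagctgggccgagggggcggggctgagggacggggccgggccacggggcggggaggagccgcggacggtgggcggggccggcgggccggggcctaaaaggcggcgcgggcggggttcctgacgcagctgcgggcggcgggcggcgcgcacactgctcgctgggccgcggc
SLC3A2: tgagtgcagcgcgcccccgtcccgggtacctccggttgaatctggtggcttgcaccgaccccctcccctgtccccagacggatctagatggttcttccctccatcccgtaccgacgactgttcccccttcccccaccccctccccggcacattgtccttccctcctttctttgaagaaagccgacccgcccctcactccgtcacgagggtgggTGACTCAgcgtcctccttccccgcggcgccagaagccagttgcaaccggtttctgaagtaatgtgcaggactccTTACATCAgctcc
SLC7A1: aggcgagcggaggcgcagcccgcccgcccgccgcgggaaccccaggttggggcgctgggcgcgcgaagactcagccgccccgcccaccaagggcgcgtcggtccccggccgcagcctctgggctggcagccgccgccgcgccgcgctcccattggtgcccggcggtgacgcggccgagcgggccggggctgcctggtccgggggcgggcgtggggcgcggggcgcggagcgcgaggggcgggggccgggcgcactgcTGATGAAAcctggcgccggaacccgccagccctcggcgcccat
SLC1A5: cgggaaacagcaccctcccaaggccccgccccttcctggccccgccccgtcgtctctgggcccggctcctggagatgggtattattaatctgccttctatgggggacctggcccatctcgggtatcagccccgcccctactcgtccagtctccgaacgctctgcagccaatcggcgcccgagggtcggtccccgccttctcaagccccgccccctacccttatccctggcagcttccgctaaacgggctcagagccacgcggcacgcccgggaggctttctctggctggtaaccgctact
WARS1: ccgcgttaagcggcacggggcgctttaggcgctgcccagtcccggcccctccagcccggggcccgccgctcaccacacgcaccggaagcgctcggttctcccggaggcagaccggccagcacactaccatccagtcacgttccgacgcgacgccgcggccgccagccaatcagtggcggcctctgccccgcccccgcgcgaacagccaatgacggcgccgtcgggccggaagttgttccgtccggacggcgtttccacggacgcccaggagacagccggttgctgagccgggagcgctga

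Over the whole list TGATGNAA was found in 9 of the 32 windows (28.1%), against 3.62% of the 35116 promoter windows of the table. Each gene of the list was counted by its first window, and the share was taken over every window. These windows outnumber the 19775 genes with an own probe set, so the sets compared are unlike. CACGTG was found in 4 (12.5%, against 7.26%), namely SLC7A5, SLC38A5, SLC43A1 and IARS1, and TGANTCA in 3 (9.38%, against 7.71%), namely SLC3A2, SLC38A1 and SLC43A2. The windows of SLC1A5 and WARS1 held none of these letters. A match describes the sequence and was not tested as a site. The 9 matches to TGATGNAA, with up to 10 bases on each side, are given on the strand that reads TGATGNAA to show the bases around them. They were picked by this match, so only the N and the bases on each side can differ.
SLC3A2: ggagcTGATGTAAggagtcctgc
SLC7A1: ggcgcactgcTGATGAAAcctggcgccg
SLC38A1: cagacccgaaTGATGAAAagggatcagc
AARS1: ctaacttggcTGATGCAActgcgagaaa
CARS1: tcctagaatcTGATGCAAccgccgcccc
IARS1: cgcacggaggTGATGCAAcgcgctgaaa
MARS1: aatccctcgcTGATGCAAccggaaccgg
NARS1: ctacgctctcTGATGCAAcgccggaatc
TARS1: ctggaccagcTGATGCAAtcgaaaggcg
Of these genes 8 had a probe set of their own. By the test alone SLC3A2, SLC7A1, SLC38A1, CARS1, IARS1, NARS1 and TARS1 were higher in REC1 after anti-IgM, and AARS1 did not pass. Over the whole list 18 of 30 tested genes were higher, and 26.7% of all genes were, so nothing is read from the motif.

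WARS1 (200629_at), the tryptophanyl-tRNA synthetase, was the only synthetase called by its main probe set after any treatment, and it was called in 3 lines. In REC1 it was highest after anti-IgG, at 1424, 1125 and 1483, against 409.8, 406 and 437 in Control 1-3, 3.2-fold (log2 1.68, limma adjusted p 1.35e-11). Anti-IgM gave 3.16-fold, its fragment 2.17-fold and LT20 2.07-fold, and rituximab and its fragment 1.78-fold and 1.88-fold without a call. The isotype arrays read 508, 531 and 583, above the controls (1.29-fold, limma adjusted p 0.0315), and against them the calls for the fragment (log2 0.75) and LT20 (0.68) ended.

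In OciLy18 WARS1 read 1700.0, 1705 and 1798 after anti-IgM, against 564, 577 and 491 in Control 1-3, a log2 change of 1.68 (SE 0.071, limma adjusted p 4.62e-15). The fragment gave 1281, 1222 and 1217, 2.28-fold, a call that ended against Control 4-6 (log2 0.99). Anti-IgG gave 1614, 1592 and 1645, against 651, 549 and 682 in Control 4-6, 2.59-fold. LT20, rituximab and isotype arrays lay between 448 and 556 and overlapped the controls. In Z138 the call was after anti-IgG, 1273, 1357 and 1164 against 595, 425 and 475 in Control 4-6 (2.56-fold, limma adjusted p 3.79e-12), while anti-IgM and its fragment gave 1.64-fold each without a call. In SUDHL4 the level was lower, 286 to 332 after anti-IgG against 218 to 287 in Control 4-6, and no treatment was called. A second probe set of WARS1 gave the same call in 7 of these 8 comparisons, and after LT20 in REC1 it read 0.94 on the log2 scale.

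By their main probe sets the other synthetases of REC1 moved by less than 2-fold. Of the 17 tested, WARS1 included, 12 were higher and 1 lower after anti-IgM by the test alone, 11 and 1 after the fragment, 11 and 1 after anti-IgG and 7 and 1 after LT20, where 60.8%, 65.1%, 58.8% and 45.1% of all genes passed. Rituximab gave 6 higher and its fragment 7, with none lower, where 28.0% and 37.2% passed. The following were picked out after their values were seen. GARS1, the glycyl synthetase, read 1882, 2049 and 1788 after anti-IgM, against 946, 947 and 1122 in the controls (1.9-fold, limma adjusted p 4.34e-09). CARS1 (cysteinyl) read 1142, 1107 and 1072, against 634, 669 and 576. YARS1 (tyrosyl) read 1405, 1509.6 and 1464, against 851, 880.0 and 757, and SARS1 (seryl) 1296, 1345 and 1096, against 675, 723 and 755. None of these treated arrays overlapped the controls. VARS1 (valyl) was lower, with a log2 change of -0.41, and AARS1, FARSB, KARS1 and LARS1 did not pass the test. CARS1 rose 1.77-fold after anti-IgM and 1.61-fold after anti-IgG, and its log2 change was -0.03 after rituximab and -0.14 after the rituximab fragment, neither of which passed the test. For CARS1 and SARS1 another probe set was called after anti-IgM, at log2 changes of 1.06 and 1.38, and that of SARS1 also after anti-IgG, at 1.22.

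**Figure D3:**
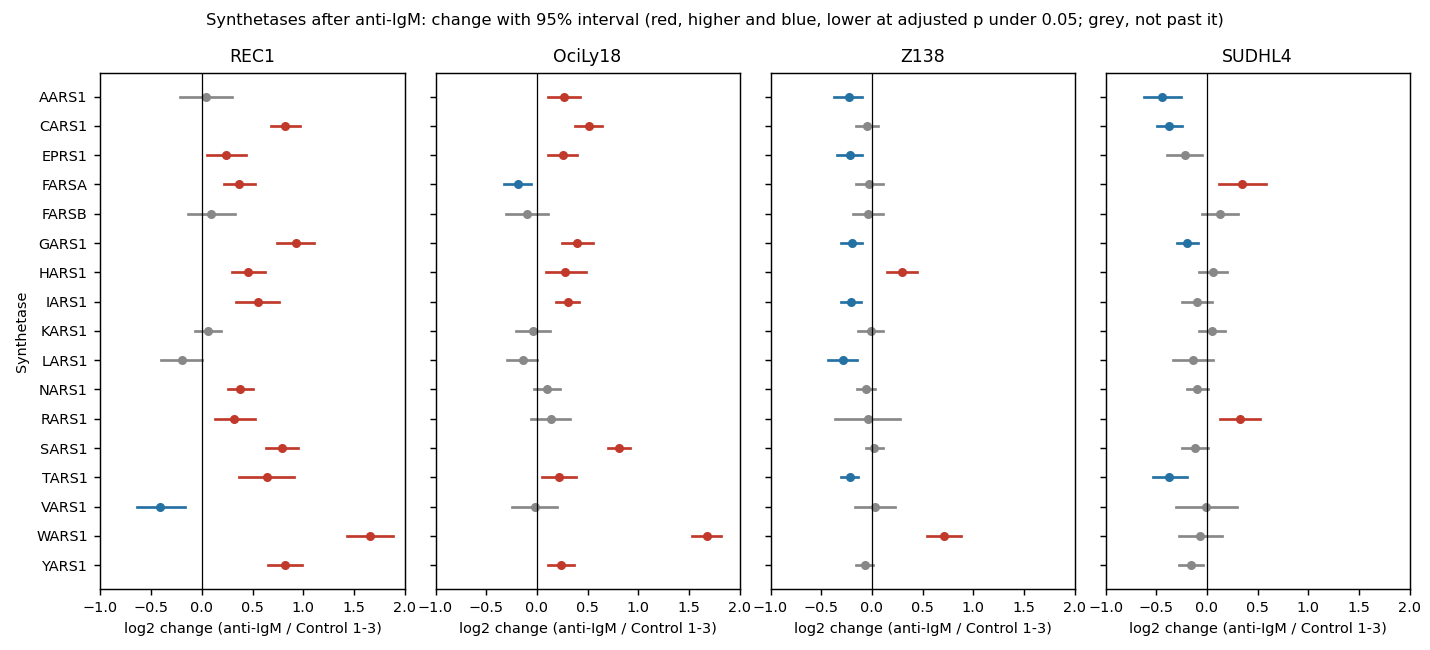
Log2 change of the 17 synthetases after anti-IgM against Control 1-3 in 4 lines (point, estimate; line, 95% interval; red higher and blue lower at an adjusted p below 0.05, grey not past it). In REC1 12 are higher and 1 lower, in OciLy18 10 and 1, in Z138 2 and 6, in SUDHL4 2 and 4.

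In OciLy18 the receptor antibodies gave 4 calls, WARS1 after all 3 and SLC7A11 after anti-IgM, where 3.62%, 4.14% and 1.40% of all genes were called after anti-IgM, its fragment and anti-IgG. At an adjusted p below 0.05 alone, 18 genes were higher and 1 lower after anti-IgM, 13 and 3 after the fragment and 13 and 0 after anti-IgG, where 49.0%, 53.2% and 28.7% of all genes passed. The median log2 change of the 31 genes was 0.24 after anti-IgM, beside -0.04 over all genes. SLC7A11 read 130.5, 121 and 131 after anti-IgM, against 53.5, 66.0 and 47.7 in Control 1-3 (log2 1.20, SE 0.119, limma adjusted p 1.55e-08). Against Control 4-6, which read 84.0, 86.8 and 91.8, the log2 change was 0.54, and against all 6 controls 0.87, so that call rested on the control triplicate. A second probe set read 1.48 there, past the test but not called. SLC3A2 rose 1.65-fold after anti-IgM and SLC7A5 1.41-fold, past the test alone, and SLC7A1 1.13-fold from a high level. The anti-CD20 antibodies and the isotype antibody gave no call (0.0900% of all genes called after LT20, 0% after rituximab and isotype), and by the test alone SLC7A11, AARS1 and SLC38A2 were higher after LT20 (16.7% of all genes passed) and SLC7A11 after rituximab (3.02%). These rises are against Control 1-3, and no gene of the list rose by more than 0.73 after LT20 or 0.46 after rituximab on the log2 scale. For SLC7A11 untreated Control 4-6 itself lay 0.66 above Control 1-3 (87.5 against 55.8).

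In Z138 no gene of the list was called after anti-IgM or its fragment, where 2.95% and 4.68% of all genes were. After anti-IgM 6 were higher and 8 lower by the test alone, and after the fragment 4 were higher and 11 lower, where 42.9% and 51.2% of all genes passed. WARS1, SLC7A11, SLC1A4 and HARS1 were higher after both, and SLC1A5, SLC7A1, GARS1, TARS1, AARS1, EPRS1, IARS1 and LARS1 were lower after both. These directions are against Control 1-3, and some depended on it. EPRS1 averaged 1613 and 1548 after anti-IgM and its fragment, against 1880 in Control 1-3 but 1291 in Control 4-6. SLC1A4 averaged 306 after both, against 221 and 303, and SLC7A11 105 and 111, against 68.9 and 99.3. SLC7A1, at 831 and 881, lay below both triplicates (1036 and 1059). The SLC1A5 arrays read 60.2, 51.1 and 44.9 after the fragment, against 96.5, 111 and 97.7 in Control 1-3, 1.96-fold lower. Anti-IgG gave 11 higher and 2 lower with WARS1 as its only call, where 48.7% of all genes passed and 5.50% were called. Another probe set of SLC7A11 was called there at a log2 change of 1.65, the main one reading 0.82. Among the 11 were SLC3A2 (809.6, 762 and 806, against 538, 455 and 465 in Control 4-6), SLC7A5 (2054, 2292 and 2081, against 1517, 1437 and 1334) and SLC7A1 (1463, 1614 and 1483, against 1084, 1015 and 1079), none of which overlapped its controls. LT20 and rituximab moved only WARS1, 1.26-fold and 1.24-fold by the test alone, where 4.46% and 3.18% of all genes passed and 0.145% and 0.105% were called.

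**Figure D4:**
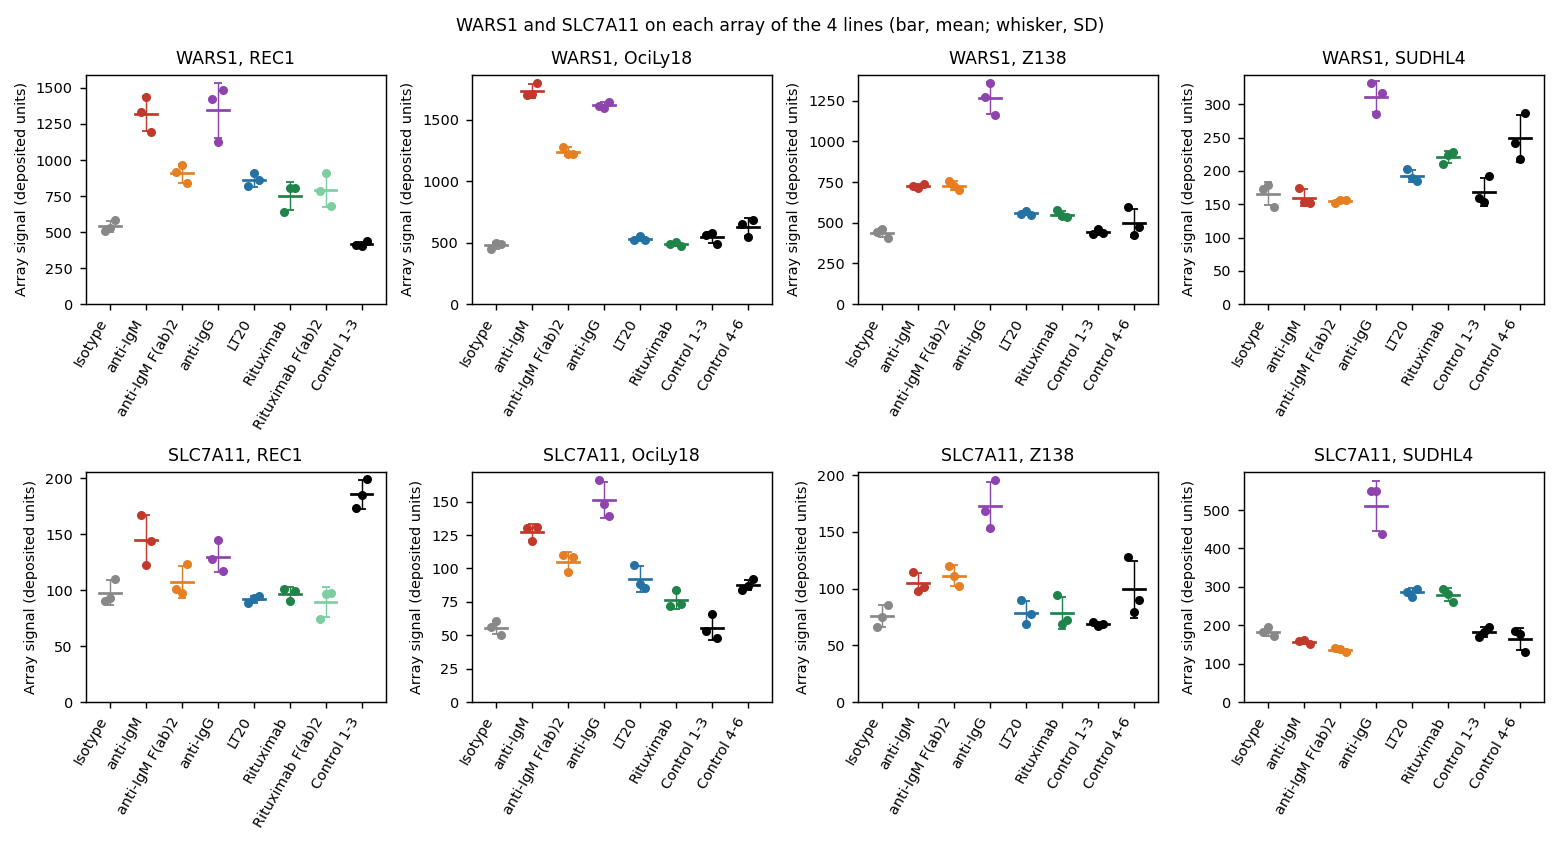
Array signal of WARS1 (top) and SLC7A11 (bottom) in REC1, OciLy18, Z138 and SUDHL4 by treatment, treated groups left of the controls (points, arrays; bar, mean; whisker, SD, n = 3). WARS1 reads 1700.0 to 1798 after anti-IgM in OciLy18 against 491 to 577 in Control 1-3, and SLC7A11 437 to 549 after anti-IgG in SUDHL4 against 131 to 185 in Control 4-6.

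SUDHL4 lacks the IgM heavy chain transcript and showed another pattern. Its only call was SLC7A11 after anti-IgG, at 549, 548 and 437, against 185, 177 and 131 in Control 4-6, 3.13-fold (log2 1.64, SE 0.107, limma adjusted p 2.44e-12), where 7.27% of all genes were called. Against Control 1-3, at 170.5, 184 and 197, the arrays also did not overlap. LT20 and rituximab raised SLC7A11 1.56-fold and 1.52-fold without a call, where 5.82% and 5.03% of all genes were called. SLC38A1, the system A transporter SNAT1, rose in the same 3 treatments, 1.54-fold after anti-IgG, 1.5-fold after LT20 and 1.5-fold after rituximab, all past the test alone, and 2 further probe sets of it passed the 2-fold limit after anti-IgG (log2 1.25 and 1.35).

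Other SUDHL4 transporters were lower. SLC7A5 read 407, 345 and 277 after LT20, against 556, 604 and 619.6 in Control 1-3 (log2 -0.81, limma adjusted p 1.02e-06). SLC1A4, the ASCT1 exchanger, read 136, 116 and 131 after LT20, against 206, 241 and 234 (log2 -0.83), and another of its probe sets was called at -1.29 (-1.04 after rituximab). A second probe set of SLC43A2 was called after LT20 at -1.22, the main one reading -0.44. Among genes past the test alone 13 were lower and 4 higher after LT20, 10 and 7 after rituximab and 11 and 8 after anti-IgG, where 54.5%, 49.6% and 55.7% of all genes passed and 37.3%, 30.4% and 36.1% were lower. Whole anti-IgM gave no call of the list (0.0139% of all genes) and its fragment none (0.251%), although 9 and 15 genes passed the test alone, where 11.2% and 28.5% of all genes did. After the fragment SLC7A5 read 411, 352 and 325, against 556, 604 and 619.6 in Control 1-3, and SLC7A1 read 1031, 962 and 917, against 1336, 1329 and 1442. After the isotype antibody no gene of the list passed the test in SUDHL4, OciLy18 or Z138, where 0.0139%, 0% and 0% of all genes passed, and 7 passed in REC1, where 14.8% did.

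Antibodies of 1 line were also compared with each other, each relative to its own controls, in 12 contrasts. Beside the isotype contrasts of REC1, the only call was SLC7A11 in SUDHL4, which was higher by 1.01 on the log2 scale after anti-IgG than after LT20 (95% interval 0.69 to 1.32, 0.502% of all genes called), a call at the limit that ended when 1 array was left out, at 0.85 without Control replicate 6, 0.95 without Control replicate 3 or either of anti-IgG replicates 1 and 2, and 0.98 without LT20 replicate 2. In that contrast 6 genes were higher by the test alone, where 6.66% of all genes passed. LT20 against rituximab in SUDHL4 gave no call (0% of all genes), with HARS1 (-0.27) and SLC7A5 (-0.52) lower by the test alone, where 2.10% of all genes passed. The whole anti-IgM antibody and its fragment differed in no call in REC1, OciLy18 or Z138, where 0.103%, 0.0386% and 0.0395% of all genes were called. By the test alone the fragment was lower for CARS1 (log2 -0.58, 95% interval -0.73 to -0.43), WARS1 (-0.54, -0.77 to -0.31), NARS1 and SLC38A2 in REC1, where 6.88% of all genes passed. In OciLy18 it was lower for WARS1 (-0.48), SLC7A5 (-0.45), CARS1, SLC38A2 and SARS1, where 6.48% passed. In Z138 it was lower for SLC1A5 (-0.52), CARS1, TARS1 and YARS1 and higher for SLC7A5 (0.19), where 9.36% passed. For SLC7A5 in REC1 the interval of this difference ran from -0.48 to 0.08 and for SLC3A2 from -0.19 to 0.17. Anti-IgG against anti-IgM gave no call in REC1 (0.103% of all genes), OciLy18 (0.810%) or Z138 (1.47%), but in Z138 10 genes were higher after anti-IgG by the test alone, led by SLC7A1 (0.84), SLC3A2 (0.83) and SLC7A5 (0.70), where 19.1% of all genes passed. In OciLy18 SLC38A1 was lower (-0.26, 9.61% passed) and in REC1 no gene passed (2.29%). LT20 exceeded rituximab in REC1 for SLC7A5 (0.48, 0.20 to 0.76) without a call (0.218% of all genes), and SLC38A2 was lower (-0.24), where 10.1% passed. For rituximab and its fragment no gene of the list passed the test, and neither did any other gene (0% passed, 0% called).

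Responses to the same antibody were set against each other between lines as the difference of the log2 changes, over 34 genes in a model of all arrays. After anti-IgM REC1 exceeded OciLy18 for SLC7A5 by 1.80 (95% interval 1.5 to 2.1), SLC7A1 by 1.72 and SLC3A2 by 1.08, and was below it for SLC7A11 by -1.58 and SLC7A7 by -1.94, where 9.86% of all genes were called. SLC7A7 lay under the signal limit in OciLy18, at 37.2 on average in untreated cells. Against Z138 REC1 exceeded SLC7A5 by 2.41 (2.11 to 2.71), SLC7A1 by 2.21, SLC3A2 by 1.93, SLC1A5 by 1.66 and GARS1 by 1.13, with SLC7A7 at -1.59, where 12.1% were called. For WARS1 the difference between REC1 and OciLy18 was -0.02 (-0.29 to 0.26). With the other control triplicate in OciLy18 and Z138, SLC7A11 against OciLy18 (-0.91) and SLC7A7 against Z138 (-0.97) were no longer called. With isotype arrays as the reference in both lines, SLC3A2 (0.92), SLC7A1 (0.88) and SLC7A11 (-0.64) against OciLy18 and SLC1A5 (0.89) and GARS1 (0.99) against Z138 were not called, and SLC7A5 was called against both lines (1.25 and 1.85).

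After anti-IgG, SLC1A4 and WARS1 were called against SUDHL4 in all 3 other lines, at 1.53 and 1.35 in REC1, 1.59 and 1.04 in OciLy18, and 1.37 and 1.03 in Z138, where 9.60%, 5.52% and 6.16% of all genes were called. These differences depended on the reference. SLC1A4 averaged 257 after anti-IgG in SUDHL4, against 421 in Control 4-6 (log2 -0.73), but 227 in Control 1-3, against which the change did not pass the test (log2 0.16, 95% interval -0.14 to 0.45, limma adjusted p 0.341). With the other control triplicate in every line but REC1, SLC1A4 differed from SUDHL4 by 0.65 in REC1, 1.39 in OciLy18 and 0.95 in Z138 and WARS1 by 0.78, 0.68 and 0.61, and of these the SLC1A4 difference of OciLy18 was called. With isotype arrays as the reference, SLC1A4 differed by 0.29, 1.18 and 1.04 and WARS1 by 0.39, 0.85 and 0.62. REC1 against SUDHL4 was also called for SLC1A5 at 1.71, which became 0.43 with the other triplicate and 0.07 with isotype arrays, and for SLC3A2 at 1.10, which became 0.62 and 0.52. SLC7A5 (2.43) and SLC7A11 (-2.16) were called under both, at 1.73 and 1.17 and at -1.99 and -1.07. The WARS1 differences of OciLy18 and Z138 were at the limit. That of OciLy18 lost its call without SUDHL4 anti-IgG replicate 2 (0.98), SUDHL4 Control replicate 6 (0.93) or OciLy18 Control replicate 5 (0.95). That of Z138 lost it without SUDHL4 anti-IgG replicate 2 (0.96), SUDHL4 Control replicate 6 (0.92), Z138 Control replicates 5 (0.92) or 6 (1.0, just under the limit), or Z138 anti-IgG replicate 2 (0.97). LT20 and rituximab in REC1 against SUDHL4 differed for SLC7A5 by 2.44 and 1.43, SLC7A1 by 1.49 and 1.01, and SLC7A11 by -1.66 and -1.55, where 7.21% and 4.59% were called. In SUDHL4 SLC7A5 was lower and SLC7A11 higher than in the controls after both antibodies by the test alone, and in REC1 SLC7A5 was higher and SLC7A11 lower. The isotype antibody by itself moved SLC7A11 in REC1 by -0.93, and neither anti-CD20 antibody differed from it there past the test. With isotype arrays as the reference in both lines the differences were 1.88 and 0.88 for SLC7A5, 0.66 and 0.18 for SLC7A1 and -0.73 and -0.62 for SLC7A11, of which that of SLC7A5 after LT20 was called.

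Untreated REC1 had low levels of SLC7A5, SLC7A1 and SLC3A2, while SLC1A5 and WARS1, which also rose in it, were not lowest there. In untreated cells SLC7A5 averaged 246 ± 31.6 in REC1 (SD, n = 3), against 758 ± 112 in OciLy18, 1304 ± 157 in Z138 and 781 ± 208 in SUDHL4 (n = 6 each). SLC7A1 averaged 263 ± 10.1 in REC1 and 1291 ± 125, 1047 ± 43.0 and 1322 ± 72.1 in OciLy18, Z138 and SUDHL4. The differences from REC1 were called for both genes in every line, 2.29 on the log2 scale for SLC7A1 in OciLy18 over REC1, -1.99 in REC1 over Z138 and 2.33 in SUDHL4 over REC1. OciLy18 and SUDHL4 were not called apart for either gene. With anti-IgM, SLC7A5 in REC1 (1011 to 1404) reached the range of untreated Z138 (1129 to 1517), a description with no test. SLC3A2 was lower in REC1 than in Z138 (log2 -1.35). SLC43A1, LAT3, averaged 35.2 in REC1, under the signal limit, against 205 ± 23.3 in OciLy18, 62.5 ± 9.6 in Z138 and 120 ± 16.2 in SUDHL4. SLC1A5 averaged 333 ± 37.3 in REC1, against 303 ± 90.9 in OciLy18, 132 ± 38.3 in Z138 and 181 ± 86.4 in SUDHL4, called in REC1 over Z138 (log2 1.38) and, at the limit, in SUDHL4 over REC1 (-1.02).

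SLC7A7 and SLC7A11, which were lower in treated REC1, had their highest untreated means in it. SLC7A7 averaged 266 ± 28.3 in REC1, against 37.2 ± 10.99 in OciLy18, 117 ± 42.5 in Z138 and 137.5 ± 28.5 in SUDHL4, and SLC7A11 186 ± 13.0 in REC1, against 71.6 ± 18.5, 84.1 ± 23.1 and 174 ± 22.8. SLC7A11 was called between each of REC1 and SUDHL4 and each of OciLy18 and Z138, and not between REC1 and SUDHL4. WARS1 was lowest in SUDHL4, 209 ± 51.3, against 417 ± 17.1 in REC1, 471 ± 63.9 in Z138 and 586 ± 69.7 in OciLy18, called against all 3, the difference from REC1 (log2 -1.04) being at the limit. SLC38A5, the system N transporter SNAT5, averaged 137 ± 17.7 in OciLy18 and 144 ± 31.3 in Z138, and in SUDHL4 it lay under the signal limit at 15.3 to 24.3, called lower than in both. Of the 33 genes tested, 5 were called between SUDHL4 and OciLy18 (20.4% of all genes), 6 between SUDHL4 and REC1 (26.4%), 7 between SUDHL4 and Z138 (21.6%), 8 between OciLy18 and REC1 (24.3%), 4 between OciLy18 and Z138 (16.3%) and 8 between REC1 and Z138 (24.9%).

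**Figure D5:**
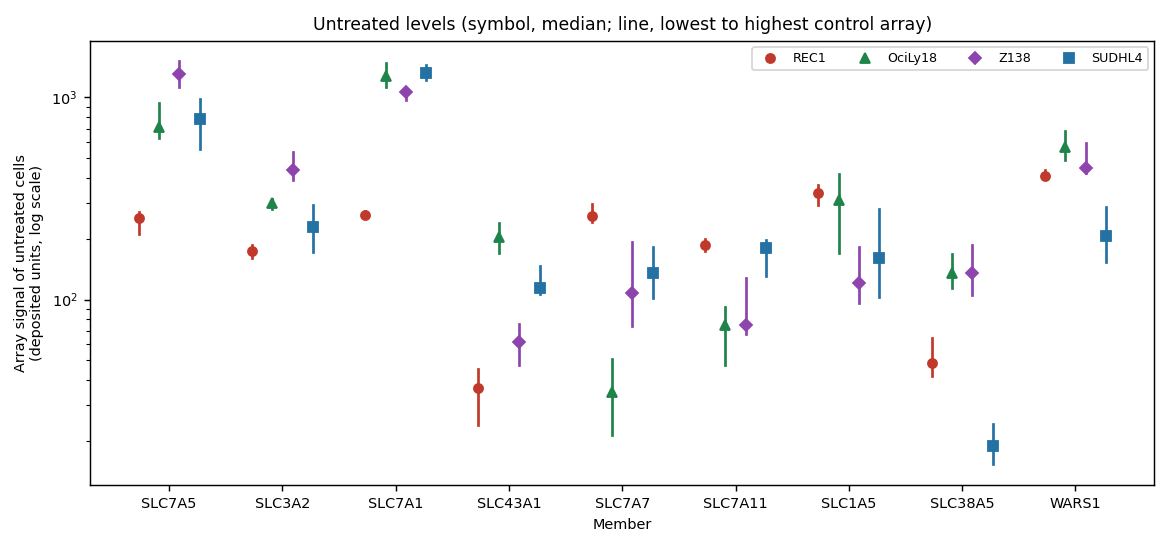
Array signal of 9 genes in untreated cells of REC1, OciLy18, Z138 and SUDHL4 on a log axis (symbol, median; line, lowest to highest control array; n = 3 in REC1, 6 in the others). REC1 has the lowest SLC7A5, SLC3A2, SLC7A1 and SLC43A1 medians and the highest SLC7A7 median.

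Genes of related pathways were counted from lists chosen, like the genes above, with earlier results of these data known. Of 17 tested genes for amino acid synthesis and ATF4 targets, 8 were called higher and 0 lower in REC1 after anti-IgM. Its fragment gave 3 calls higher, anti-IgG 6, LT20 2 and rituximab and its fragment 1 each. Of all genes, higher or lower, 13.0% were called after anti-IgM, 14.6% after its fragment and 11.2% after anti-IgG. After LT20, rituximab and the rituximab fragment 5.47%, 1.91% and 3.14% of all genes were called. The median log2 change of the list was 0.72 after anti-IgM, beside -0.05 over all genes. The largest rises after anti-IgM were those of TRIB3, an ATF4 target that restrains AKT (1800.5, against 136 in the controls, 13.2-fold), DDIT3, the stress factor CHOP (889 against 93.1, 9.58-fold), ASNS, asparagine synthetase (727 against 197, 3.7-fold), and DDIT4, an inhibitor of mTORC1 (396 against 126, 3.15-fold). ASNS was not called after the fragment. In OciLy18 4 of 22 tested genes of that list rose after anti-IgM and 3 after its fragment, and VLDLR fell after both. There 3.62% and 4.14% of all genes were called. In Z138, with 20 tested, the fragment raised DDIT3 and PPP1R15A and lowered PSAT1 and PYCR1, and the median there was -0.25, beside 0.02 over all genes. Anti-IgG in Z138 raised DDIT4 (3.78-fold), DDIT3 (3.64-fold) and TRIB3 (2.21-fold) and lowered VLDLR (2.45-fold), with a median of -0.02, beside -0.02. The share of all genes called in Z138 was 4.68% after the fragment and 5.50% after anti-IgG. In SUDHL4, with 19 tested, anti-IgG raised PPP1R15A, a phosphatase subunit of the stress response (5.98-fold), and DDIT3 (5.62-fold) and lowered PSPH, an enzyme of serine synthesis (2.42-fold), with a median of -0.15, beside -0.08. LT20 raised PPP1R15A (3.87-fold) and lowered PSPH (2.64-fold) there, and rituximab raised PPP1R15A (3.86-fold). The share of all genes called in SUDHL4 was 7.27% after anti-IgG, 5.82% after LT20 and 5.03% after rituximab.

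Most mitochondrial synthetases are encoded by separate genes, and the list of these holds none for glycine, lysine or glutamine. In REC1 0 of 14 tested were called after anti-IgM or anti-IgG, where 13.0% and 11.2% of all genes were. After the anti-IgM fragment 2 were called, MARS2 (2.45-fold) and YARS2 (2.06-fold), where 14.6% of all genes were. The median log2 change of the mitochondrial synthetases after anti-IgM was -0.08, beside -0.05 over all genes and 0.38 for the 17 cytosolic synthetases. Of the 4 other genes of the cytosolic synthetase complex 1 could be tested, and it was not called in any treatment. Among 17 further amino acid transporters 2 to 4 were tested per line, and SLC25A22 rose in REC1 after anti-IgG, SLC6A6 fell in Z138 after the anti-IgM fragment, and SLC1A1, a glutamate transporter, fell in SUDHL4 after anti-IgG (2.56-fold), LT20 (2.47-fold) and rituximab (2.09-fold). In these treatments 11.2%, 4.68%, 7.27%, 5.82% and 5.03% of all genes were called, in this order. A further list held genes by which mTORC1 senses amino acids, with EIF2AK4 counted beside them. From it SESN3, an mTORC1 inhibitor of the sestrin family, was called lower in all 7 REC1 treatments, where 0.705% to 14.6% of all genes were called. The fall was 7.93-fold after anti-IgM and 2.17-fold after isotype. Others of that list were called in both directions. LAMTOR2 fell in REC1 after the anti-IgM fragment (log2 -1.09), where 14.6% of all genes were called. In Z138 SESN1 rose after anti-IgM (1.04), and RRAGC (1.06) and FNIP1 (1.03) after its fragment, where 2.95% and 4.68% were called. In SUDHL4 FLCN rose and EIF2AK4 fell after anti-IgG (1.98 and -1.52) and LT20 (2.12 and -1.14). Anti-IgG there also raised RRAGC (1.23) and LAMTOR3 (1.2) and lowered NPRL2 (-1.14). The shares of all genes called were 7.27% after anti-IgG and 5.82% after LT20. None was called in OciLy18, where the share was 0% to 4.14% per treatment.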

How the data were processed

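The deposited values are array signal intensities, which the authors computed from HG-U133 Plus 2.0 scans with MAS5 as the sample records name it, run in GCOS by the methods, and the version is not given in the sources used here. Group means and change factors of the authors were not used. All 96 arrays mapped to a group, and 0 value columns were left out. Signals under 1 were set to 1 and taken to log2, with no further normalization. Genes were named by the platform annotation, from probe sets of 1 gene. A limma model (limma 3.58.1, R 4.3.3) of 8 groups was fitted to the 24 arrays of each line over all probe sets above a mean signal of 100 in 1 group, with Benjamini-Hochberg adjustment over them. One model of all arrays compared lines, and one of the 21 control arrays the untreated lines. The scripts were tested on simulated data. The members and lists were chosen with earlier results of these data known. By rule, values of each array are given for genes called in at least 1 treatment comparison, where their change was largest, up to 6 uncalled genes may be named for their level or for disagreeing probe sets, and up to 4 called genes of each related list are named by size of change. Genes named beyond this rule were chosen after their values were seen. Alternatives covered the offset, normalization, signal filter, eBayes trend, control arrays, isotype reference, also between lines, probe sets, replicate number as a block and single arrays left out.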

Additional observations from a re-analysis of the deposited data

Results flagged for a closer look

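The responses of 2 lines to the same antibody differed past the limits of a call for 31 gene and line pairs, each tested as the difference of the log2 changes in a limma model of all arrays. After anti-IgM in REC1 against OciLy18 the differences were 1.08 for SLC3A2, 1.72 for SLC7A1, 1.80 for SLC7A5, -1.58 for SLC7A11 and -1.94 for SLC7A7. SLC7A11 was lower in REC1 and higher in OciLy18, and the difference was -0.91, not called, with the other control triplicate of OciLy18. Against Z138 they were 1.13 for GARS1, 1.66 for SLC1A5, 1.93 for SLC3A2, 2.21 for SLC7A1, 2.41 for SLC7A5 and -1.59 for SLC7A7.

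After anti-IgG in REC1 against SUDHL4 they were 1.53 for SLC1A4, 1.71 for SLC1A5, 1.10 for SLC3A2, 1.43 for SLC7A1, 2.43 for SLC7A5, -2.16 for SLC7A11 and 1.35 for WARS1. OciLy18 against SUDHL4 gave 1.59 for SLC1A4, 1.28 for SLC7A7 and 1.04 for WARS1, and Z138 against SUDHL4 gave 1.37 for SLC1A4 and 1.03 for WARS1. With the other control triplicate in SUDHL4, OciLy18 and Z138, the SLC1A4 differences from SUDHL4 became 0.65 in REC1, 1.39 in OciLy18 and 0.95 in Z138, and in REC1 that of SLC1A5 became 0.43, of SLC3A2 0.62 and of WARS1 0.78, so that most of these calls ended. SLC7A7 in OciLy18 lay below the signal limit, and its difference was 0.99 with 16 added to each signal.

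After LT20 in REC1 against SUDHL4 they were 1.17 for SLC1A5, 1.49 for SLC7A1, 2.44 for SLC7A5 and -1.66 for SLC7A11. After rituximab they were 1.46 for SLC1A4, 1.01 for SLC7A1, 1.43 for SLC7A5 and -1.55 for SLC7A11. By the test alone SLC7A5 was higher in REC1 and lower in SUDHL4 under both antibodies, and SLC7A11 lower in REC1 and higher in SUDHL4. The isotype antibody alone gave SLC7A11 in REC1 a log2 change of -0.93. With isotype arrays as the reference in both lines the SLC7A11 differences were -0.73 and -0.62, neither called.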

How the results depend on the processing

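No called change or difference reversed its sign under any setting tried. Leaving out single arrays in the comparisons between lines and between untreated lines, and other references between lines, were added after seeing the data. Of the 32 treatment calls all held without a signal filter and without the eBayes trend, and 17 held with isotype arrays as the reference. All 32 also held under the fold and signal limits of the methods alone, taken on the ratio of mean signals. A call already passes these limits on the log2 scale, so only calls near the fold limit could be lost. The detection calls of the methods were not used here.

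Of the 31 calls between lines, 20 held with the other control triplicate and 12 with isotype arrays as the reference. With the other triplicate the calls became 0 for anti-IgG in Z138 against SUDHL4 (2 before) and 8 for LT20 in REC1 against SUDHL4 (4). With isotype arrays they became 2 for anti-IgM in REC1 against OciLy18 (5), 3 for anti-IgG (7), 1 for LT20 (4) and 1 for rituximab (4) in REC1 against SUDHL4, and 1 for anti-IgG in Z138 against SUDHL4.

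With the other control triplicate the calls became 2 for isotype (0 before), 4 for anti-IgM (0), 4 for its fragment (0), 2 for anti-IgG (1), 4 for LT20 (0) and 3 for rituximab (0) in SUDHL4. They became 1 for anti-IgM (2), 0 for its fragment (1) and 3 for anti-IgG (1) in OciLy18, and 1 for anti-IgM (0), 1 for its fragment (0) and 3 for anti-IgG (1) in Z138. Genes past the test alone became 15 for isotype (0) and 18 for anti-IgM (9) in SUDHL4, 11 for isotype (0), 21 for anti-IgG (13), 15 for LT20 (3) and 10 for rituximab (1) in OciLy18, and 15 for isotype (0), 14 for LT20 (1) and 16 for rituximab (1) in Z138. With all 6 control arrays the calls were 1 for the anti-IgM fragment, 3 for LT20 and 1 for rituximab in SUDHL4, 1 for anti-IgM and 3 for anti-IgG in OciLy18, and 1 for the fragment and 2 for anti-IgG in Z138. Genes past the test alone were then 7 for isotype and 19 for anti-IgM in SUDHL4, 3 for isotype, 11 for LT20 and 4 for rituximab in OciLy18, and 11 for isotype, 21 for anti-IgG (13 before), 8 for LT20 and 10 for rituximab in Z138.

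With isotype arrays as the reference the calls in REC1 were 3 for the anti-IgM fragment (6 before), 3 for anti-IgG (6), 1 for LT20 (4), 0 for rituximab (1) and 0 for its fragment (3), and 8, 2 and 7 genes passed the test alone for LT20 (17), rituximab (16) and the rituximab fragment (17). For anti-IgG the calls were 2 in SUDHL4, 3 in OciLy18 and 5 in Z138, with 21 past the test alone in OciLy18 and 22 in Z138, and 0 passed for rituximab in OciLy18 and 2 for LT20 in Z138. Counting any probe set of a gene gave 2 calls for anti-IgG, 2 for LT20 and 1 for rituximab in SUDHL4, 1 for isotype in REC1 and 2 for anti-IgG in Z138. In REC1 it also added calls of CARS1 and SARS1 after anti-IgM and of SARS1 after anti-IgG. Adding 16 to each signal left 0 calls (1 before) for anti-IgG against LT20 in SUDHL4. A signal limit of 200 left 1 call for anti-IgM in OciLy18 and 0 genes past the test for rituximab there, and without a signal filter 0 passed for rituximab in OciLy18, and 0 for LT20 and 0 for rituximab in Z138. Rituximab in Z138 also gave 0 without the eBayes trend. Quantile normalization gave 7 past the test for LT20 and 0 for rituximab in OciLy18, 2 calls for rituximab in REC1, 1 for anti-IgG in Z138 against SUDHL4 (2) and 3 for untreated SUDHL4 against REC1 (6). The filter of the methods alone gave 1 call for anti-IgM in Z138.

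With single arrays left out the calls ranged from 0 to 1 for anti-IgG against LT20 in SUDHL4, 1 to 2 for the anti-IgM fragment in OciLy18 (2 without Control replicate 2), 0 to 1 for isotype in REC1 (1 without its replicate 3), 1 to 2 for rituximab in REC1 (2 without its replicate 1), 0 to 1 for the anti-IgM fragment in Z138 and 1 to 2 for anti-IgG in Z138 (2 without Control replicate 4). They ranged from 1 to 3 for anti-IgG in OciLy18 against SUDHL4 (1 without OciLy18 Control replicate 5), 1 to 2 for Z138 against SUDHL4 and 3 to 8 for untreated SUDHL4 against REC1 (3 without SUDHL4 Control replicate 1 or 2). For the fragment in Z138, 1 call was made without Control replicates 1 or 3 or its own replicate 1. Smaller moves of the calls in REC1 were 3 to 4 for LT20, 2 to 3 for the rituximab fragment, 5 to 6 for the anti-IgM fragment and 6 to 7 for anti-IgM and for anti-IgG. Genes past the test alone ranged from 1 to 5 for LT20 and 0 to 1 for rituximab in OciLy18, 4 to 7 for isotype (4 without Control replicate 2) and 10 to 16 for rituximab in REC1 (10 without Control replicate 2), 0 to 1 for LT20 in Z138 and 0 to 0 for rituximab in Z138.

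With the replicate number as a block, 6 genes were called and 23 passed the test alone for anti-IgM in REC1 (6 and 22 without the block). In the other comparisons with shared replicate numbers no count of calls changed and no count past the test alone moved by more than 1. Same-numbered arrays deviated together, with all 3 correlations above 0.1, in 2 of 22 comparisons, so the numbers were not taken to pair the arrays.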
